A study of Mus musculus with 20 samples.

Results

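Solute carriers are the membrane proteins that move small molecules into, out of and within cells, and the probes described here measured those outside the main acid-base transporters in brain regions of NHE1 null mice. A probe counted as a carrier probe if its single gene symbol began with Slc and a digit, if the gene was not Slc9a3r1, Slc4a2, Slc4a3 or Slc16a3, and if each region had at least 2 arrays with a value. Of the 15245 probes on the array, 127 carried such a symbol, 5 were left out by name and 13 had too few values, which left 109 probes of 94 genes in 39 carrier families, among 7117 genes named on the array. The rule went by name, so Slc4a1, Slc4a8 and Slc9b2, which belong to bicarbonate and proton exchanger families, stayed in. All 109 symbols equalled the current mouse symbol by Entrez ID, and 15 genes had 2 probes, which are given apart.

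Carriers are sorted into families by sequence, and a family often shares a kind of cargo, such as glucose, amino acids, metals or the metabolites that cross the inner mitochondrial membrane. Most work without burning ATP, either letting cargo run down its own gradient or coupling it to a gradient of sodium, protons or another solute. In brain they feed neurons and glia, clear transmitters, set neuronal chloride and cross the blood-brain barrier. NHE1 is the plasma membrane sodium-proton exchanger that raises the pH inside cells.

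The arrays were 2-colour cDNA arrays. Each compared amplified RNA of a brain region from an NHE1 null mutant mouse with pooled RNA of that region from wild-type mice, and the regions, 4 in all, were brain stem-diencephalon, cerebellum, hippocampus and cortex. In the labels the null RNA stood in channel 1 on 3 arrays of each region and in channel 2 on 2 arrays, called swapped here. The sources used here give neither strain, age nor the kind of null allele, and the wild-type pool was the only control.

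Values are log2 ratios of null over wild type, centred on each array's median, with the swapped arrays turned. Which channel stands on top in the deposited ratio is not stated, so the direction is likely only, and the opposite order would turn every sign below. The files hold ratios and no levels, so neither the labelled region nor the level of a carrier could be checked, and no carrier can be called more abundant than another. In whole tissue, fewer cells of a type and less RNA per cell cannot be told apart. Arrays of one region with the same number were averaged to 1 replicate, 4 in cortex and 3 in each other region, and cortex replicate 4 is a swapped array that the labels leave without a number. Whether that array repeats a cortex extract already counted is not stated. It may therefore not be independent, though it counts as a replicate in n, SE and p-values.

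Between 50 and 108 carrier probes had a value on an array. A swapped array occurred nearly unchanged as number 1 of cerebellum and as number 2 of brain stem-diencephalon, and both copies were left out of the values below, which left 18 arrays. The replicates of number 1 stood apart from the others: the Y-linked gene Eif2s3y lay between -1.36 and -0.44 on their 6 arrays and between 0.93 and 1.64 on 11 other arrays. Over all probes, arrays of one region and orientation correlated at a median of 0.239 in the 9 pairs that held an array of number 1, against 0.614 in the 5 other pairs. In some carriers named below, the replicates of number 1 did not overlap the others. The share of carrier probes or of all probes that parted so was not counted, so this does not set those carriers apart. What sets number 1 apart was not tested.

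In the mean of the 4 regions, 12 carrier probes were lower and 5 were higher in the null, of 108 tested, at an adjusted p under 0.05. Together these 17 are 15.7% of the carrier probes, beside 13.6% of all 12175 probes tested. The lower calls were 11.1% of the carrier probes against 6.6% of all probes, and the higher calls were 4.63% against 6.97%. The median carrier probe lay at 0.02 and the median of all probes at 0.01, with 58 carrier probes above 0 (53.7%, beside 51.8% of all probes). Most differences were small: 17 carrier probes, not all of them called, differed by more than 1.2-fold in the mean, and 1, a probe of Slc16a13, by more than 1.5-fold. Of all probes 0.805% differed by more than 1.5-fold, and the share past 1.2-fold was not counted. The probe of Slc25a17, a peroxisomal member of the mitochondrial carrier family, had too few replicates to be tested, and its 8 values ran from -0.22 to 0.38.

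**Figure D1:**
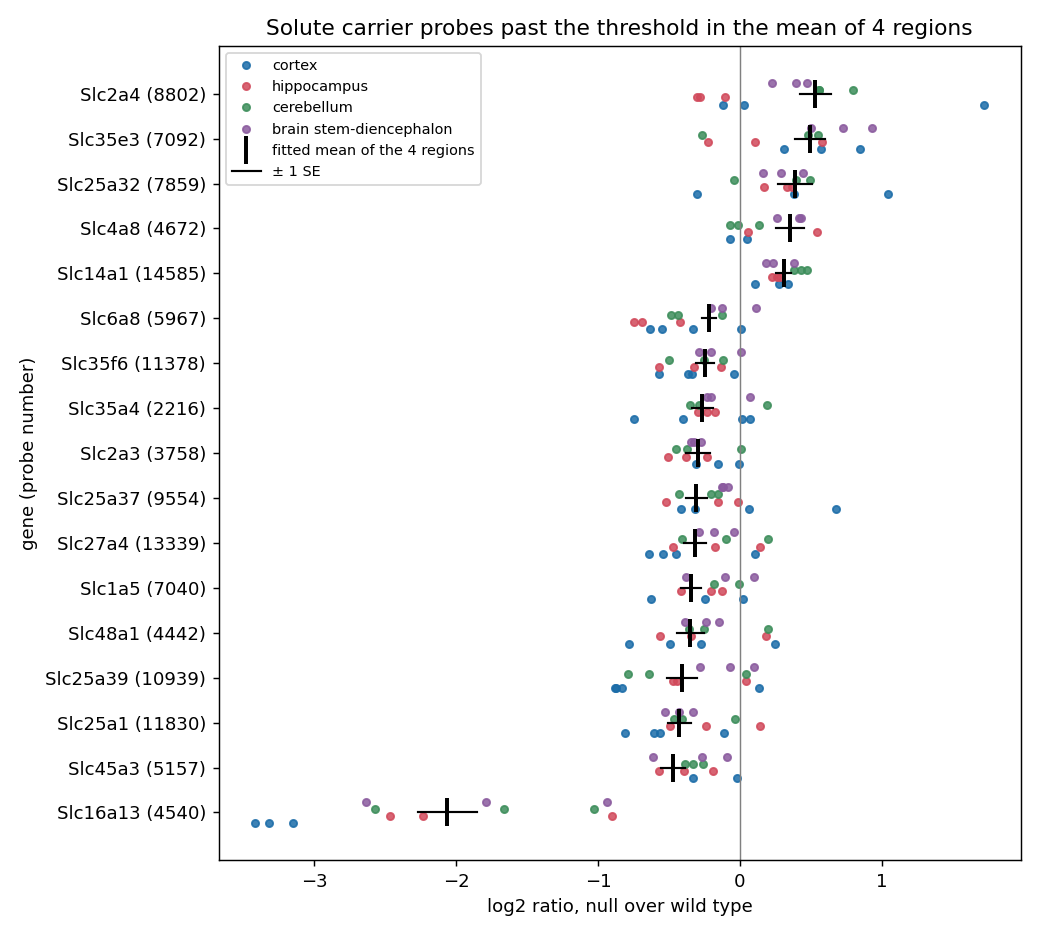
Log2 ratio of null over wild type (x axis) for the 17 carrier probes past the threshold in the mean of the 4 regions, by gene and probe number (y axis); points are replicates coloured by region, and black marks are the fitted mean with 1 SE. Slc16a13 lies far to the left of the other 16, the 3 cortex replicates lowest, and for Slc2a4 the hippocampus points lie left of 0 while the fitted mean lies at 0.53.

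Slc16a13, a member of the monocarboxylate carrier family that also moves lactate and pyruvate, showed the greatest difference of the carrier probes. Its probe 4540 read 4.17-fold lower in the null in the mean of the regions, a log2 ratio of -2.06 ± 0.21 (SE, n = 12 replicates; adjusted p = 0.000114). The cortex replicates read -3.15, -3.31 and -3.41. Hippocampus read -0.90, -2.47 and -2.24 for numbers 1 to 3, cerebellum -1.03, -1.66 and -2.57, and brain stem-diencephalon -0.93, -2.63 and -1.79. All 12 replicates were therefore below 0, cortex lay below every replicate of the other regions, and within each other region number 1 was the least negative. Cortex had no value of number 1 for this probe, so its fitted value and those of the other regions rest on different numbers. The swapped arrays showed the same: number 2 of hippocampus read -2.31 in channel 1 and -2.62 swapped, and number 1 read -0.76 and -1.04. In single regions the probe passed in cortex at 9.30-fold lower (log2 -3.22 ± 0.34, adjusted p = 0.00129) and in hippocampus at 3.46-fold lower (-1.79 ± 0.34, adjusted p = 0.0417). The cortex call ended without cortex replicate 4 (-2.58, adjusted p = 0.356), and the hippocampus call ended without any of 7 replicates: cortex 2, 3 or 4, hippocampus 2 or 3, cerebellum 2 or brain stem-diencephalon 3 (-1.79 to -1.41, adjusted p 0.0613 to 0.36). The mean remained called in every one of these fits.

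The other probe of Slc16a13, number 2921, did not follow. Its fitted mean was 0.13 ± 0.06 (n = 9 replicates, adjusted p = 0.179). Its replicates read 0.23 and 0.27 in cortex, -0.05 and -0.00 in hippocampus, 0.20, 0.15 and 0.33 in brain stem-diencephalon, and 0.09 and 0.09 in cerebellum. The probes of this gene thus lay 2.19 log2 units apart, and they shared a sign in 2 of the 8 replicates that measured both. Which part of the gene either probe matches was not analysed here.

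The transport groups used from here on follow family numbers and not the cargo of each gene. Slc5a6 and Slc5a11 count as sugar carriers, and Slc13a4 as a carboxylate carrier, by that rule alone. Among the sugar carrier families, 1 of 9 probes was higher and 2 were lower in the mean, and the group's median was 0.02. Slc2a3, the main glucose transporter of neurons, was lower at -0.30 ± 0.08 (n = 12, adjusted p = 0.0357). Its replicates ran from -0.50 through a median of -0.32 to 0.01, and 11 of 12 were below 0. Slc45a3, a member of a family linked to sugar transport, was lower at -0.47 ± 0.08 (n = 11, adjusted p = 0.00687), with all 11 replicates between -0.61 and -0.02. It was one of 2 carrier probes with every replicate below 0, the other being Slc16a13 probe 4540. Slc2a1, the glucose transporter of the blood-brain barrier, was at -0.07 ± 0.07 (adjusted p = 0.565), and its replicates were split 6 above and 6 below 0. The call of Slc45a3 ended without brain stem-diencephalon replicate 1 (-0.52, adjusted p = 0.119). The call of Slc2a3 ended without cortex replicate 2 or 4, hippocampus 2, cerebellum 2 or any brain stem-diencephalon replicate (-0.32 to -0.23, adjusted p 0.0529 to 0.191).

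Slc2a4, the glucose transporter that insulin brings to the cell surface, had the highest fitted mean of the carrier probes, 0.53 ± 0.11 (n = 12, adjusted p = 0.0113). Its replicates read -0.12, 0.03 and 1.72 in cortex, -0.11, -0.28 and -0.30 in hippocampus, 0.40, 0.22 and 0.47 in brain stem-diencephalon, and 0.56, 0.80 and 0.55 in cerebellum. Cerebellum and brain stem-diencephalon were thus above 0 throughout, hippocampus was below 0 throughout, and a single cortex value, replicate 4, stood far above the rest. Without that replicate the mean was 0.24 (adjusted p = 0.124), and without the orientation term 0.33 (adjusted p = 0.0561). In cerebellum Slc2a4 did not pass as reported (0.91, adjusted p = 0.0795). It did pass there without cortex replicate 4 (0.69, adjusted p = 0.0198), with both copies of the repeated array kept (0.91, adjusted p = 0.0411) and in the fit of single arrays described at the end (0.81, adjusted p = 0.0441). The fitted hippocampus value was 0.04 although all its replicates were negative, because the model takes out a difference between array orientations, and cortex replicate 4 is the only replicate made of a swapped array alone. Over the 108 tested probes, the fitted mean had the opposite sign from most replicates in 22, such as Slc44a4, a choline carrier-like protein (0.03, with 12 of 13 replicates below 0), and Slc9b2 (0.07, with 10 of 11 below 0).

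Carriers of neurotransmitters and related amino acids and osmolytes held 9 probes, 2 lower and none higher, with a median of 0.11. Slc6a8, which takes up creatine, was lower with probe 5967 in the mean (-0.22 ± 0.05, n = 13, adjusted p = 0.0147), in cortex (-0.31 ± 0.07, adjusted p = 0.0441) and in hippocampus (-0.53 ± 0.08, adjusted p = 0.0123). Its replicates read -0.55, -0.33, -0.63 and 0.01 in cortex, -0.42, -0.69 and -0.75 in hippocampus, 0.11, -0.13 and -0.20 in brain stem-diencephalon, and -0.49, -0.12 and -0.44 in cerebellum. Hippocampus was lowest and brain stem-diencephalon lay near 0. The other probe, 7626, read -0.16, -0.17, -0.57 and -0.35 in cortex and 0.17, 0.16 and 0.27 in brain stem-diencephalon, and the fitted values of both probes were lower in cortex than in brain stem-diencephalon. Probe 7626 did not pass in cortex (-0.33, adjusted p = 0.0803), in hippocampus (-0.01, adjusted p = 0.98) or in the mean (-0.05, adjusted p = 0.639).

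For Slc6a8 probe 5967 the mean call ended without cortex replicate 4, hippocampus 2 or cerebellum 2 (-0.23 to -0.19, adjusted p 0.0529 to 0.112), and the hippocampus call without hippocampus 2 or 3 (-0.56 to -0.43, adjusted p 0.0779 to 0.255). The cortex call held without cortex 1 or hippocampus 1 and ended without any of the other 11 replicates (-0.33 to -0.29, adjusted p 0.0511 to 0.501). It also ended without the orientation term (-0.38, adjusted p = 0.0662).

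Slc1a5, an exchanger of neutral amino acids including glutamine, was lower in the mean at -0.34 ± 0.07 (n = 11, adjusted p = 0.0115), and 9 of 11 replicates were below 0, from -0.63 through -0.18 to 0.10. Its call ended without cortex replicate 4 (-0.36, adjusted p = 0.17) and without the orientation term, where the Slc1a5 mean was -0.19 (adjusted p = 0.0597). Slc1a3, the glutamate transporter of astrocytes and Bergmann glia, was at 0.11 ± 0.05 (adjusted p = 0.158), with 10 of 13 replicates above 0. Slc6a20a, a proline carrier, had the highest mean of the group at 0.32 ± 0.12 and did not pass (adjusted p = 0.0933). Its number 1 replicates lay between -0.42 and -0.01, below all 9 others, at 0.04 to 0.87. The taurine carrier Slc6a6 read 0.04 ± 0.07 with probe 3922 and 0.15 ± 0.08 with probe 15171 (adjusted p = 0.737 and 0.232).

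Mitochondrial carriers had 1 probe higher and 3 lower of 15 tested, around a median of 0.06. Slc25a1, which exports citrate to the cytosol, was lower in the mean at -0.43 ± 0.08 (n = 13, adjusted p = 0.00727). Its replicates read -0.11, -0.56, -0.60 and -0.81 in cortex, 0.14, -0.49 and -0.24 in hippocampus, -0.33, -0.53 and -0.43 in brain stem-diencephalon, and -0.03, -0.46 and -0.41 in cerebellum. Number 1 was the least negative in every region, and 12 of 13 replicates were below 0. Cortex also passed alone at 1.47-fold lower (log2 -0.56 ± 0.12, adjusted p = 0.0343). The mean call ended without cortex replicate 4 or cerebellum 2 (-0.41 to -0.37, adjusted p 0.0514 to 0.112), and the cortex call without cortex 2, 3 or 4, cerebellum 2 or brain stem-diencephalon 3 (-0.56 to -0.46, adjusted p 0.0572 to 0.518).

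Slc25a39, a carrier needed for glutathione in mitochondria, was lower at -0.41 ± 0.10 (n = 13, adjusted p = 0.0232). Its cortex replicates read 0.14, -0.87, -0.83 and -0.88, its hippocampus replicates 0.04, -0.47 and -0.44, and its cerebellum replicates 0.04, -0.64 and -0.79. Number 1, given first, was above 0 in all 3 of these regions, and the other numbers were clearly below. Brain stem-diencephalon read -0.07, -0.28 and 0.10, near 0. Slc25a37, the iron importer mitoferrin, was lower at -0.31 ± 0.08 (n = 13, adjusted p = 0.0201), with 11 of 13 replicates below 0 and cortex values of 0.06 and 0.68 against the call. Both calls ended without cortex replicate 4, hippocampus 2 or cerebellum 2 (Slc25a39 -0.39 to -0.38, adjusted p 0.0673 to 0.149; Slc25a37 -0.32 to -0.27, adjusted p 0.0655 to 0.15). Without the orientation term the Slc25a37 mean was -0.15 and not called (adjusted p = 0.17).

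In the other direction, Slc25a32, which carries folate or flavin cofactors into mitochondria, was higher at 0.39 ± 0.12 (n = 12) with an adjusted p of 0.0498, at the edge of the threshold. Its number 1 replicates lay between -0.30 and 0.17 and the 8 others between 0.29 and 1.05, so the groups did not overlap. Carrier probes without a call parted so too, such as Slc38a2, with number 1 at -0.13 to 0.16 and the others at -0.53 to -0.18. The call ended without any of 10 replicates (0.21 to 0.46, adjusted p 0.0532 to 0.204), that is, without any but cortex 1, hippocampus 1 and cerebellum 1. Slc25a3, the phosphate carrier that feeds ATP synthesis, was higher in cortex with probe 3336 (0.63 ± 0.13, 1.55-fold, adjusted p = 0.0316). The cortex replicates read -0.10, 0.31, 0.74 and 1.11 with this probe and -0.27, 0.25, 0.37 and 0.57 with probe 9916, so both probes placed number 1 below 0 and the other 3 above. Probe 9916 did not pass (0.31, adjusted p = 0.139), and the call of 3336 ended without cortex 2, 3 or 4 or cerebellum 2 (0.43 to 0.66, adjusted p 0.0527 to 0.526) and without the orientation term (0.51, adjusted p = 0.058). Slc25a11, which exchanges oxoglutarate for malate, was above 0 in all 13 replicates, from 0.02 to 0.47, and did not pass (0.19 ± 0.07, adjusted p = 0.0814). The adenine nucleotide carrier Slc25a5 was at 0.13 and 0.08 with its probes (adjusted p = 0.319 and 0.458).

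The citrate and glutathione-linked carriers were the called mitochondrial genes with a promoter in the RefSeq table used here, so their windows, from 250 bases before to 50 after an annotated start (GRCm38.p6), are shown as the sequence context of genes that were lower together in the mean. Capitals mark matches, on either strand, to the GC box letters GGGCGG, the CCAAT box letters CCAAT and the E-box letters CACGTG.
Slc25a1, chr16:17928170-17928469, minus strand: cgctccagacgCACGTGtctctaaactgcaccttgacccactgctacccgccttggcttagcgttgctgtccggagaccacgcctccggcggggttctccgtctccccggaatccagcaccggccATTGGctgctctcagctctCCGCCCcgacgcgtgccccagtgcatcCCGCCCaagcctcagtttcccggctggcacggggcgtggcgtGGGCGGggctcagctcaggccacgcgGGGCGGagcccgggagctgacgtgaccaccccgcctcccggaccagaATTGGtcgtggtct
Slc25a39, chr11:102407468-102407767, minus strand: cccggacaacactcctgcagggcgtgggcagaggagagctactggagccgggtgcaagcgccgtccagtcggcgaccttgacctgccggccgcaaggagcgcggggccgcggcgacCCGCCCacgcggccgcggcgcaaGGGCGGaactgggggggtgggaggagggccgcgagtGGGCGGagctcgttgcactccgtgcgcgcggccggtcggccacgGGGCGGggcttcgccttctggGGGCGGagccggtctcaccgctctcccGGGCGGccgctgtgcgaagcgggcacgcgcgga
The Slc25a1 window held 4 GC boxes, 2 CCAAT boxes and 1 E-box at 69.3% G and C, and the Slc25a39 window held 6 GC boxes and neither of the other motifs at 77.3%. Among all 32851 windows, 35.7% held a GC box, 37.4% a CCAAT box and 7.15% an E-box. Of the 93 windows of the 71 carrier genes that matched, 74.2% held a GC box, 35.5% a CCAAT box and 18.3% an E-box. A match is a description of the letters and not of a bound site.

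For ions, 11 probes gave 1 higher and none lower in the mean, with a median of 0.02. Slc4a8, a sodium-driven exchanger of chloride and bicarbonate, was higher at 0.35 ± 0.10 (n = 10, adjusted p = 0.0381). Its replicates ran only from -0.07 through 0.09 to 0.54, 7 of 10 above 0, and the call ended without cortex 2 or 4, cerebellum 2 or 3, or brain stem-diencephalon 2 or 3 (0.34 to 0.36, adjusted p 0.0573 to 0.112). Without the orientation term the Slc4a8 mean was 0.17 and not called (adjusted p = 0.0627).

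Slc12a2, which brings sodium, potassium and chloride into cells, was the carrier called higher in brain stem-diencephalon, 1 of 108 against 0.0246% of all probes called higher there (0.296% in either direction). Probe 6125 read 0.48, 0.66 and 0.29 in that region, a fitted 0.63 ± 0.12 or 1.54-fold (adjusted p = 0.0385). Probe 6532 read 0.25, 0.47 and 0.46, a fitted 0.51 ± 0.13 that did not pass (adjusted p = 0.184). In cortex the probes read -0.11, -0.02, -0.45 and 0.31, and -0.10, 0.08, -0.55 and 0.39. They therefore placed the cortex replicates in the same order, and all brain stem-diencephalon values were above 0 with both. The call ended without any of 11 replicates, all but cortex 1 and cerebellum 1 (0.51 to 0.74, adjusted p 0.0518 to 0.342). It also ended with both copies of the repeated array kept (0.66, adjusted p = 0.0592), without the orientation term (0.48, adjusted p = 0.111) and under robust moderation with a variance trend (adjusted p = 0.0765).

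Slc12a7, which lets potassium and chloride out, was lower in cortex with probe 11957, at -0.56, -0.12, -0.69 and -0.73 (fitted -0.49 ± 0.12, adjusted p = 0.0489). Probe 14418 of the same gene read -0.02, -0.23, -0.01 and -0.08 there (fitted -0.09, adjusted p = 0.505), far closer to 0. The call of 11957 held without cortex 1, hippocampus 1 or hippocampus 3 and ended without any of the other 10 replicates (-0.62 to -0.27, adjusted p 0.0506 to 0.551). Slc8a1, the sodium-calcium exchanger of the plasma membrane, was at -0.08 ± 0.12 in the mean (adjusted p = 0.702).

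Metal carriers had no call among 13 probes, for which limma's moderated test gave a median of 0.05 and 8 means above 0. Slc39a8, a zinc and manganese importer, lay highest at 0.26 ± 0.11 (adjusted p = 0.121), and Slc39a14, of like function, lowest at -0.18 ± 0.07 (adjusted p = 0.104). The replicates of Slc39a8 were split 6 above and 6 below 0, with a median of -0.004. In the fit of single arrays its mean was 0.07, below the 0.19 of Slc40a1. The iron exporter Slc40a1 was at -0.01 ± 0.18, and both probes of the iron importer Slc11a2 were near 0, at -0.04 and 0.00. Amino acid and peptide carriers likewise had none called of 13, with a median of 0.01. Slc38a2, a glutamine and alanine carrier, was at -0.19 ± 0.12 with 10 of 11 replicates below 0 (adjusted p = 0.285). Slc3a2, the chain that escorts several amino acid carriers to the membrane, was at 0.06 ± 0.07. Slc38a1, a neuronal glutamine carrier, read -3.91 with probe 660 in hippocampus replicate 3, where probe 1014 read -0.46. That single value widened the error of probe 660 to 0.28.

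Vitamin, choline, haem and lipid carriers had 2 of 9 probes lower and none higher, with a median of -0.11. Slc48a1, which moves haem out of endosomes, was lower at -0.35 ± 0.10 (n = 13, adjusted p = 0.0313), and its number 1 replicates, -0.15 to 0.25, lay above all 9 others, -0.78 to -0.24. Slc27a4, which takes part in fatty acid uptake, was lower at -0.32 ± 0.08 (n = 13, adjusted p = 0.0225), with 10 of 13 replicates below 0. The 3 values above 0 were number 1 of cortex, hippocampus and cerebellum, at 0.10, 0.14 and 0.20. Slc27a4 lost its call without cortex 4, hippocampus 2 or cerebellum 2 (-0.33 to -0.28, adjusted p 0.0736 to 0.143). Slc48a1 lost it without cortex 2 or 4, hippocampus 2, cerebellum 2 or 3, or brain stem-diencephalon 2 or 3 (-0.34 to -0.27, adjusted p 0.0502 to 0.27).

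Nucleoside and nucleotide sugar carriers were the largest group, 18 probes with 1 higher and 2 lower in the mean and a median of -0.05. Slc35e3, whose cargo is not firmly known, was higher at 0.49 ± 0.10 (n = 12, adjusted p = 0.0115), from -0.27 through 0.53 to 0.93, with 10 of 12 replicates above 0. Slc35f6 was lower with probe 11378 at -0.25 ± 0.06 (n = 13, adjusted p = 0.024), 12 of 13 replicates being below 0, while its probe 12079 was at -0.08 ± 0.09 (adjusted p = 0.556). Slc35a4 was lower at -0.26 ± 0.07 (n = 13, adjusted p = 0.03), with 9 of 13 below 0. The nucleoside carrier Slc29a1 was at 0.08 ± 0.06 (adjusted p = 0.403).

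The call of Slc35e3 ended without cortex 4 or cerebellum 2 (0.46 to 0.57, adjusted p 0.069 to 0.0706). For Slc35f6 it ended without cortex 4, hippocampus 1 or cerebellum 2 (-0.27 to -0.21, adjusted p 0.06 to 0.17). For Slc35a4 it ended without cortex 2 or 4, hippocampus 2, cerebellum 2 or 3, or brain stem-diencephalon 2 or 3 (-0.26 to -0.19, adjusted p 0.054 to 0.232), and without the orientation term (-0.19, adjusted p = 0.0549).

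Slc14a1, the urea transporter of red cells and astrocytes, was higher at 0.31 ± 0.05 (n = 12, adjusted p = 0.00594). Its replicates read 0.11, 0.28 and 0.34 in cortex, 0.26, 0.23 and 0.29 in hippocampus, 0.19, 0.24 and 0.38 in brain stem-diencephalon, and 0.47, 0.43 and 0.38 in cerebellum. All 12 lay above 0, with the 3 cerebellum values above every other one but the 0.38 of brain stem-diencephalon, which lay close to the lowest of them. Beside it, the red cell marker Hbb-b1 was higher at 0.56 (adjusted p = 0.00797), the 1 marker measured of 3 listed, and 11 of its 12 replicates were above 0. Slc4a1, the anion exchanger of red cells, did not follow, at -0.02 ± 0.15 in limma's moderated test (adjusted p = 0.936). Of its 12 replicates, 7 were above 0. The part of red cells in the Slc14a1 result was not tested. The Slc14a1 call ended without cortex replicate 4 (0.25, adjusted p = 0.149).

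Of the carboxylate carriers other than Slc16a13, the lactate and pyruvate carrier Slc16a1 was at 0.08 ± 0.05 (adjusted p = 0.363). The 3 organic ion carriers had no call, and the lowest was Slc22a17 at -0.27 ± 0.11 (adjusted p = 0.108). Its number 1 replicates, -0.09 to 0.34, lay above all 8 others, -0.63 to -0.31.

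**Figure D2:**
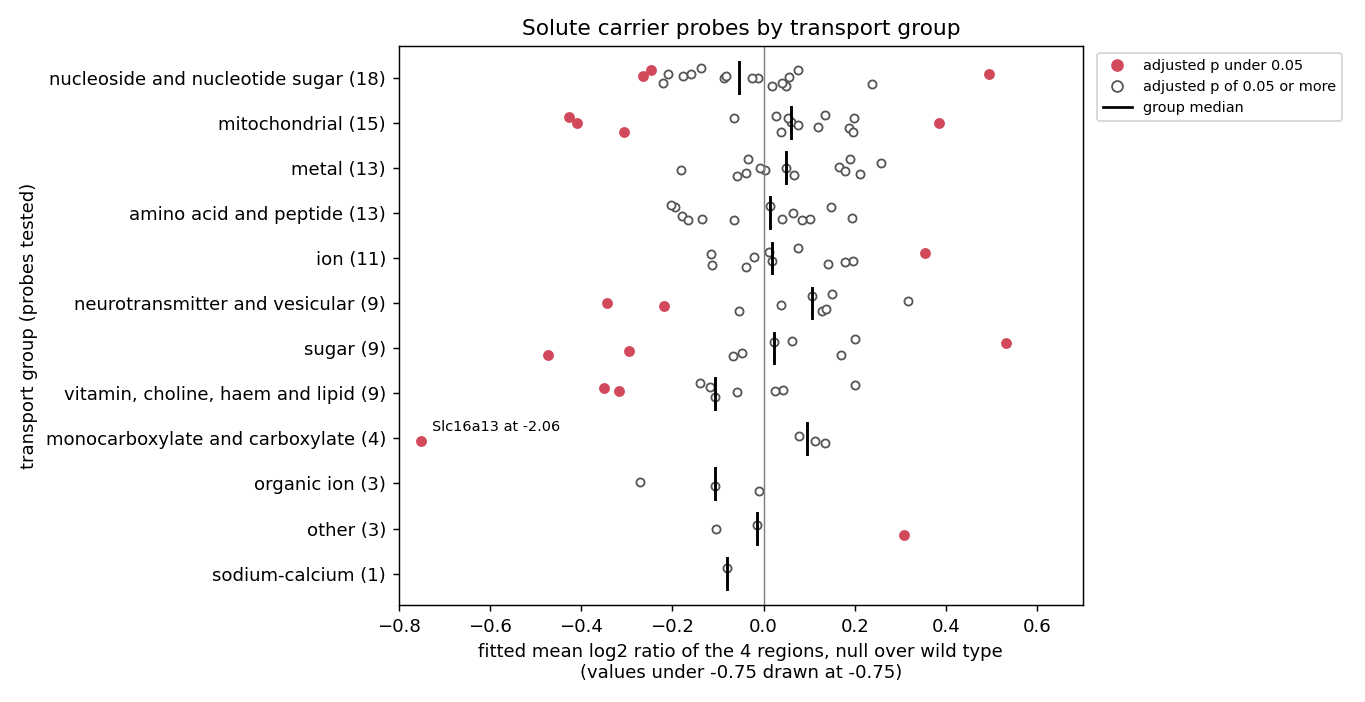
Fitted mean log2 ratio of the 4 regions (x axis, null over wild type) of the 108 tested carrier probes, by transport group with its number of probes (y axis); filled points passed an adjusted p of 0.05 and black bars are group medians. Group medians lie between -0.11 and 0.11, and the called probes lie on both sides in the sugar, mitochondrial and nucleotide sugar groups; Slc16a13 probe 4540, at -2.06, is drawn at the left edge.

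By region, 5 carrier probes passed in cortex (4.63%, beside 2.52% of all probes). Of these, 1 was higher and 4 were lower, where 1.07% of all probes were called higher and 1.45% lower. In hippocampus 2 passed (1.85% against 0.411%), both of them lower, where 0.0821% of all probes were called higher and 0.329% lower. In brain stem-diencephalon 1 passed, a higher one (0.926% against 0.296%), where 0.271% of all probes were called lower. In cerebellum limma's moderated test called none, against 0.394% of all probes (0.0986% higher, 0.296% lower). The lowest adjusted p there was 0.0757, and 12 of 108 carrier probes had an unadjusted p under 0.05, beside 14.6% of all probes. The carrier median was -0.01 in cortex and -0.04 in hippocampus, beside 0.00 and 0.01 for all probes. It was 0.01 in cerebellum and 0.04 in brain stem-diencephalon, beside 0.00 and 0.01. Of the 108 probes, 48 had a fitted value of one sign in all 4 regions, 22 above and 26 below 0. The share among all probes was not counted, so this is a description only. Among the 17 called in the mean 16 had one sign, which picking probes by the mean of the same 4 values favours.

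Whether regions differed was tested with limma's moderated F test, which called no carrier probe and 0.00821% of all probes, a single one. The smallest adjusted p of a carrier was 0.563, for Slc6a8 probe 5967, followed by Slc12a2 probe 6125 at 0.701 and Slc25a3 probe 3336 at 0.956. In this F test 12 of 108 carrier probes had an unadjusted p under 0.05, beside 4.89% of all probes. A carrier called in one region and not in another was therefore not shown to differ between them.

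**Figure D3:**
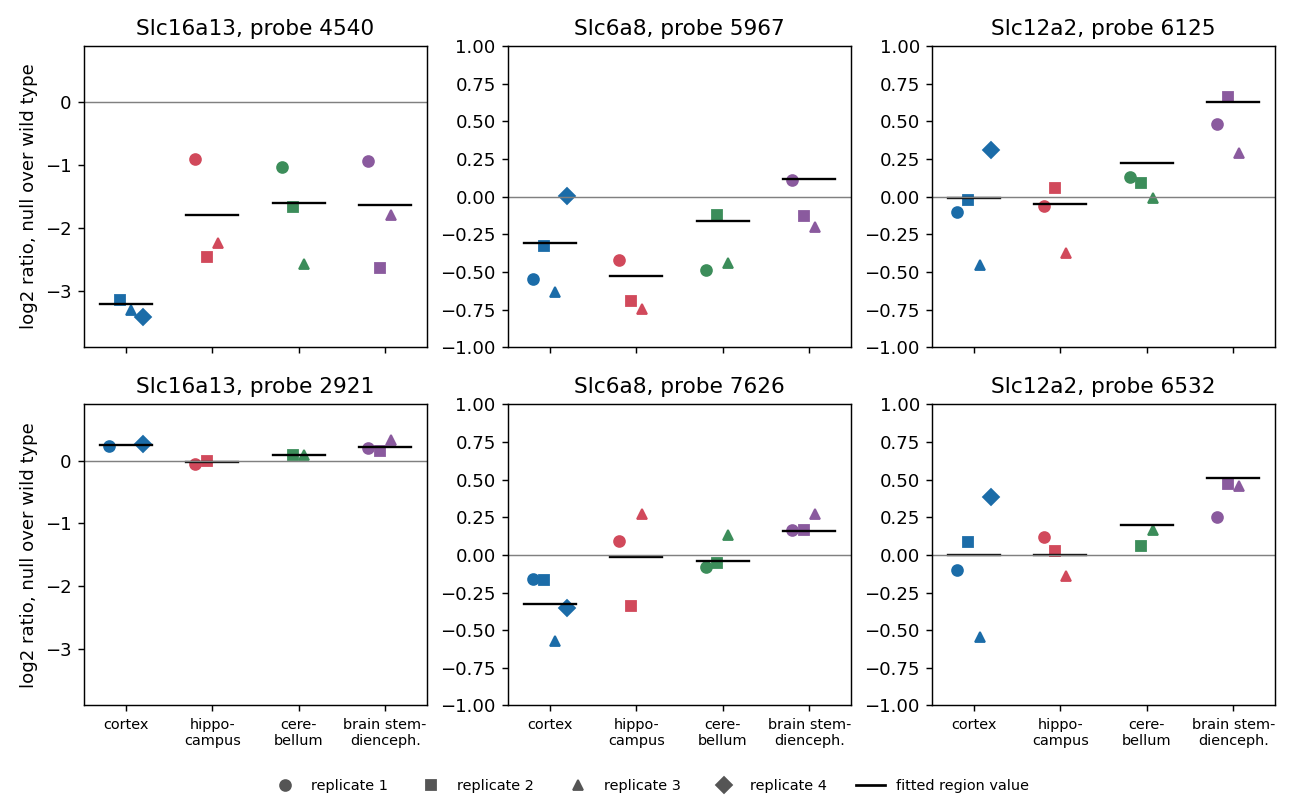
Log2 ratio of null over wild type (y axis) in each replicate by region (x axis) for both probes of Slc16a13, Slc6a8 and Slc12a2; symbols are replicate numbers and bars are fitted region values. The Slc16a13 probes part, with 4540 below 0 in every replicate and 2921 near 0, while both Slc12a2 probes are above 0 in brain stem-diencephalon.

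The 15 genes with a pair of probes show how far probes of a gene can part. In 6 genes the fitted means lay within 0.1 of each other, and in 9 they shared a sign. Probe pairs shared a sign in 92 of 174 replicate values, or 52.9%, little more often than unrelated signs would. Values near 0 can take either sign by noise, so this count alone does not show that probes part. Closest was Slc12a2, at 0.20 and 0.18, and after Slc16a13 the furthest apart was Slc38a1, at -0.13 and 0.15. The glucose carrier Slc2a8 was at -0.05 and 0.02, the peptide carrier Slc15a2 at 0.01 and 0.10, and the amino acid carrier Slc38a4 at -0.20 and -0.07. The choline carrier Slc44a1 was at 0.04 and -0.11, and Slc35e1 at -0.03 and -0.16. None of these 5 genes passed with either probe. The 3 genes called in the mean that had another probe among the 109, Slc16a13, Slc6a8 and Slc35f6, were called with 1 of their probes each. The called gene Slc45a3 also had a further probe, 5222. It had a value on only 1 cortex array, too few for the rule, and its values are not given here.

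**Figure D4:**
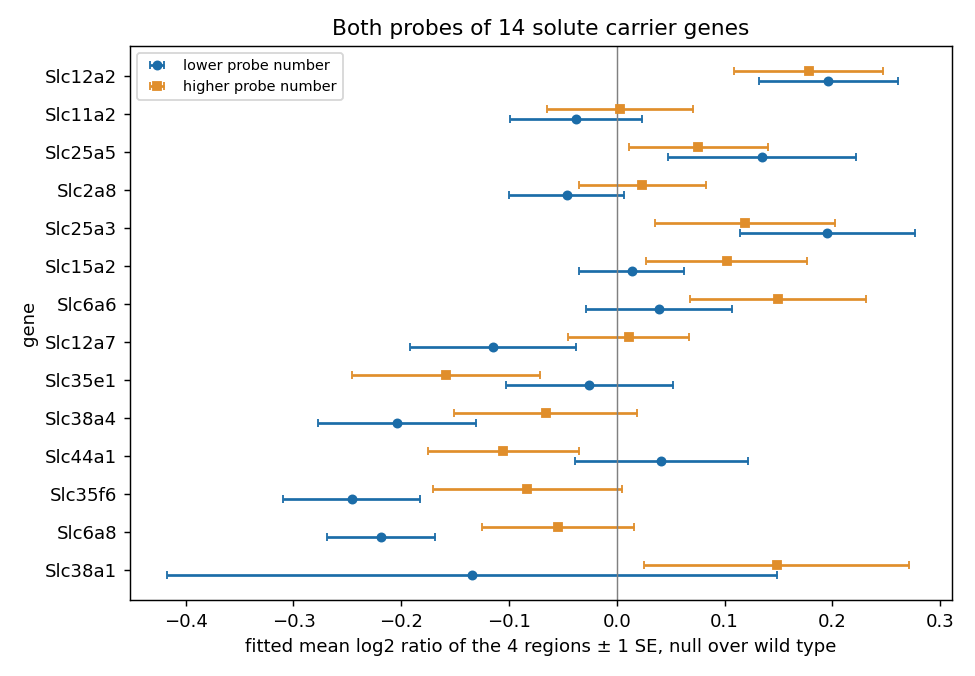
Fitted mean log2 ratio of the 4 regions with 1 SE (x axis, null over wild type) for both probes of 14 carrier genes (y axis), Slc16a13 being left out for scale; circles are the lower and squares the higher probe number. Pairs are ordered by distance from Slc12a2, with the closest means, to Slc38a1, whose probe 660 has the widest error.

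Genes that work beside carriers were read from a list of 36, of which 23 were measured with 33 probes. In the mean 4 of the 33 probes were higher and 2 lower, with a median of -0.03. Among all probes 6.97% were called higher and 6.6% lower in the mean, so so few calls do not set this list apart. Mpc1, a subunit of the mitochondrial pyruvate carrier, was higher at 0.44 ± 0.07 in 12 of 12 replicates (adjusted p = 0.00414). Atp1b2, the glial beta subunit of the sodium pump, was lower at -0.44 ± 0.07 with none of 12 replicates above 0 (adjusted p = 0.00424). Also higher were the outer membrane channel Vdac2 (0.26), glutamate dehydrogenase Glud1 with probe 14363 (0.24) and the transferrin receptor Tfrc with probe 4718 (0.58), and lactate dehydrogenase Ldha was lower (-0.23). The other probes of Tfrc were at 0.30 and -0.18, and of Glud1 at 0.05, and did not pass. In single regions, ferritin light chain Ftl1 was lower in cortex with 1 of its 5 probes (-0.46) and ferritin heavy chain Fth1 was higher in hippocampus (0.44), and no other probe of the list passed.

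Cell type markers were sparsely measured, 11 of 40 listed genes. Pecam1, an endothelial marker and the 1 vessel gene of 5 measured, was lower at -0.44 (adjusted p = 0.00503), with none of 12 replicates above 0, beside -0.07 for the vessel carrier Slc2a1. Tubb3, 1 of 2 neuronal genes measured, was lower at -0.63 (adjusted p = 0.00967), and the other, Nefl, was at -0.05. The 2 astrocyte, 1 oligodendrocyte and 3 microglial genes had no call in any region or the mean, and the choroid plexus gene Ttr read -0.81 in cortex, 0.61 in hippocampus, 0.41 in brain stem-diencephalon, and -0.74 in cerebellum with no call. Summed levels cannot be had from ratios, and the part of these cell types in the carrier results was not tested.

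Cortex replicate 4 bore the most on the calls. Without it 2 of the 17 means remained called, Slc16a13 probe 4540 and Slc45a3, although no called value changed sign. Slc45a3 had only 2 cortex replicates, and replicate 4 was not one of them. Leaving it out therefore removed no value of Slc45a3 and did not test that call. Without cerebellum replicate 2 the number was 5, and without hippocampus replicate 2 it was 8 of 16. Fitting the 18 arrays one by one, with the extract as a random block, kept all 17 means and all 8 region calls and gave 33 calls in the mean; this fit was chosen after the data were seen. Only Slc16a13 probe 4540, in the mean, was called under every alternative that kept the probes apart and without each replicate in turn.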

How the data were processed

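The authors deposited log ratios for the 20 two-channel arrays, read here as log2 ratios; the log base, channel order, scanner and normalization: not given in the sources used here. Array medians lay between 0.00862 and 0.0609; whether arrays had been centred is not known, and signal depth is unknown. An array gave values for 6793 to 13963 probes.

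Swapped arrays were turned and arrays centred on their medians. Both copies of the repeated array (r = 0.9952 over 6748 probes; the next of 190 pairs reached 0.743) were left out. After each orientation's mean was removed, opposite arrays had mean correlations of -0.103 (cortex), -0.0535 (hippocampus), -0.185 (brain stem-diencephalon) and -0.167 (cerebellum). With it left in, the median was -0.395 over 12 pairs but 0.122 over 6 pairs with a channel 1 array of number 1.

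A linear model per probe held region and orientation, fitted on 13 replicates and moderated in R 4.3.3 and limma 3.58.1, with 5.92 prior and 8 residual degrees of freedom. Probes with values in 2 or more replicates of every region were tested, and p-values are limma's, two-sided, Benjamini-Hochberg adjusted over all 12175, with a threshold of 0.05. The labels do not say that numbers mark separate animals, so p-values measure only how far these samples spread, which may be technical, and the pool's own spread is left out. Replicates of one number in different regions, and cortex replicate 4, were counted as independent, which they may not be. The fit was tested on simulated data with independent errors and the same difference in every region. Correlation between replicates of one number was not part of that simulation.

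Genes named are the called probes, the extremes of the mean and of each group, both probes of a gene, the smallest F tests and a list of brain carriers. Slc4a1, Slc25a11, Slc25a17, Slc44a4 and Slc9b2 were named after their values were seen. The members and all lists were chosen with earlier results of these data known.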

Additional observations from a re-analysis of the deposited data

Results flagged for a closer look

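Among the 35 carrier probes whose 4 cortex replicates were tested for a value far from the others (Dixon's test at its critical value for 4 samples), 2 had one, and chance gives about 1 in 20. For Slc8a1 probe 8983, the sodium-calcium exchanger, cortex replicate 1 read -1.17 and the next lowest -0.06. Its cerebellum replicate 1 read -0.70 against 0.02 and 0.08 for the others. For Slc25a39 probe 10939, cortex replicate 1 read 0.14 while the nearest other read -0.83. Both values come from arrays of number 1, the number with the opposite sign of Eif2s3y. The cause was not tested.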

How the results depend on the processing

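As reported, 5 carrier probes were called in cortex, 2 in hippocampus, 0 in cerebellum, 1 in brain stem-diencephalon and 17 in the mean. With both copies of the repeated array kept, 3 were called in cerebellum, 0 in brain stem-diencephalon and 26 in the mean. Without an orientation term there were 3 in cortex, 2 in cerebellum and 27 in the mean, but only 12 of the reported 17 were among the last, and Slc1a5, Slc2a4, Slc4a8, Slc25a37 and Slc35a4 were not. Scaling the arrays to one spread left 1 in cortex, Slc16a13, and ended the mean calls of Slc25a32 and Slc48a1. A variance trend with robust moderation left 1 in cortex and 0 in hippocampus and in brain stem-diencephalon, and ended the mean calls of Slc2a3 and Slc25a32. That trend ran over each probe's mean log ratio, since the files hold no levels. The variance it set therefore depended on the difference being tested and not on signal. Averaging the probes of a gene left 2 in cortex and 0 in hippocampus and in brain stem-diencephalon. Without the channel 1 arrays of number 1 there were 26 in cortex, 3 in cerebellum, 3 in brain stem-diencephalon and 39 in the mean. The fit of single arrays, added after the data were seen, called 10 in cortex, 4 in cerebellum, 2 in brain stem-diencephalon and 33 in the mean. Stricter filtering and no median centring kept each count within 1.5 times, and the F test called 0 throughout. The causes were not tested.

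Leaving out 1 replicate at a time gave 0 to 21 calls in cortex, 0 to 3 in hippocampus, 0 to 1 in cerebellum, 0 to 1 in brain stem-diencephalon, 2 to 22 in the mean and 0 by the F test. Same-numbered replicates of different regions correlated above 0.1 in 15 of 18 pairs and not in all, and the labels do not tie a number to an animal. These correlations ran from 0.04 to 0.62, and those of differently numbered replicates from -0.53 to 0.295. If a number marks 1 animal, the n, SE and p-values of the mean count that animal more than once. The block used next is a fixed term, which takes the spread between numbers out of the error and does not address this. With the number as a replicate block, 2 were called in cortex, 4 in hippocampus, 3 in cerebellum, 3 in brain stem-diencephalon and 13 in the mean, 11 of the last among the 17. The block ended the mean calls of Slc1a5 (-0.48, adjusted p = 0.108), Slc2a4 (0.26, 0.0548), Slc6a8 (-0.23, 0.0825), Slc14a1 (0.28, 0.0754), Slc25a37 (-0.20, 0.268) and Slc35a4 (-0.22, 0.0677), and the brain stem-diencephalon call of Slc12a2 (0.44, 0.0856). Of the 5 cortex calls it kept Slc16a13 and ended Slc6a8 (adjusted p = 0.138), Slc12a7 (0.114), Slc25a1 (0.0555) and Slc25a3 (0.135). With it Slc2a4 passed in cerebellum (0.72, adjusted p = 0.00572). Of the named probes, 1216 values kept their side of the threshold, 147 lost and 33 gained a call, and none that was called changed sign. The number of arrays limits the precision.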
